A study of Mus musculus with 816 samples.

Results

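The comparison described here asked what a mix of interleukin-4 (IL4), interleukin-10 (IL10) and interleukin-13 (IL13) changed in mouse microglia that were kept under lipopolysaccharide (LPS) for 72 h. Its members are the 5 cultures labelled LPS_lo with IL4, IL10 and IL13 together and the 11 cultures labelled LPS_lo alone, chosen by treatment and time point, out of 784 cultures in a series of 816 samples. The study profiled primary microglia under a large panel of stimuli by 3′-end RNA sequencing. The cells were purchased neonatal mouse microglia, grown on poly-lysine in 96-well plates and stimulated 4 days after plating. LPS_lo means LPS at 0.00001 µg/µl, and the labels of the combined cultures give this dose only, so the dose of the cytokines beside LPS is not known here. Groups at the same time point that serve for comparison were 25 untreated cultures, 6 cultures with IL4, IL10 and IL13 at 0.00005 µg/µl without LPS, and 5 cultures each of LPS_lo with IL4, LPS_lo with IL10 and LPS_lo with IL13.

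LPS is a component of the wall of Gram-negative bacteria that is sensed by Tlr4 with Cd14 and drives NF-kB and interferon responses. IL4 and IL13 share the receptor chain Il4ra, signal through Stat6, and are known for inducing Arg1, Retnla, Chil3 and Mrc1 in macrophages and microglia. IL10 acts through Il10ra and Stat3 and is known for damping the inflammatory genes that LPS induces.

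All 62 cultures at 72 h came from 1 lot of cells, 4 plates and 8 library pools. The 5 cultures with LPS and the cytokines (numbered 1 to 5) had 10.8, 20.5, 5.51, 4.69 and 1.94 M mapped reads (M for 1e6), and the 11 LPS cultures between 1.05 and 11.3 M. Cultures 1 to 3 were sequenced in pool A2 and sat in wells marked B_Edge on plate A, and cultures 4 and 5 were in pool Ci1 on plate C, which held no LPS culture. Of the LPS cultures, 4 shared pool A2, 4 were in pool B1 and 3 in pool Di1, so pool and treatment can be separated only within pool A2. The LPS cultures of pool A2 sat in wells marked Middle (3) and R_Edge (1). Treatment and well position therefore cannot be told apart within that pool. The labels describe separate wells and no separate animals, so p-values measure the spread between these wells.

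The cytokines changed 603 of 11788 genes tested in the LPS cultures (5.12%), with 228 higher (1.93%) and 375 lower (3.18%). A gene was called at a limma adjusted p under 0.05 and a log2 fold change of at least 1, on log2(CPM + 1), where CPM is the reads of a gene per 1e6 mapped reads. The 15 largest rises and the 15 largest falls were taken only from called genes with no overlap between the 5 and the 11 cultures. Of the 15 genes with the largest rises, 8 were listed IL4 and IL13 targets, among them the arginase Arg1, and the other 7 were not. Of the 15 with the largest falls, 14 had been higher with LPS_lo at 24 h in other cultures of the series, among them the formyl peptide receptor Fpr2. Of all 11788 genes tested, 29 were listed IL4 and IL13 targets and 693 had been higher with LPS_lo at 24 h. The IL4 and IL13 list was chosen with earlier results of these data known, so its overlap with the largest rises may follow in part from that choice. Changes of at least 4 on the log2 scale were seen in 18 genes that rose and 23 that fell. The median log2 fold change of all genes tested was −0.146, and it was −0.00835 with plate as a term, 0.107 with pool as a term and 0.024 without pool Ci1. These are whole cultures, so fewer cells of a type and less RNA per cell cannot be told apart. In 351 genes (2.98%) the 5 cultures did not overlap with the 11, 146 with the cytokines higher (1.24%) and 205 lower (1.74%), and 286 of these were also called. Within pool A2 alone, with 3 cultures against 4, 602 of the 603 genes had the same sign. These cultures were among those that called the genes, so the sign was largely fixed by the selection. The test in pool A2 alone was past both thresholds in the same direction for 260 of the 603 genes. A model with the library pool as a term called 273 genes higher and 181 lower, and a model with the plate as a term 315 higher and 334 lower.

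**Figure D1:**
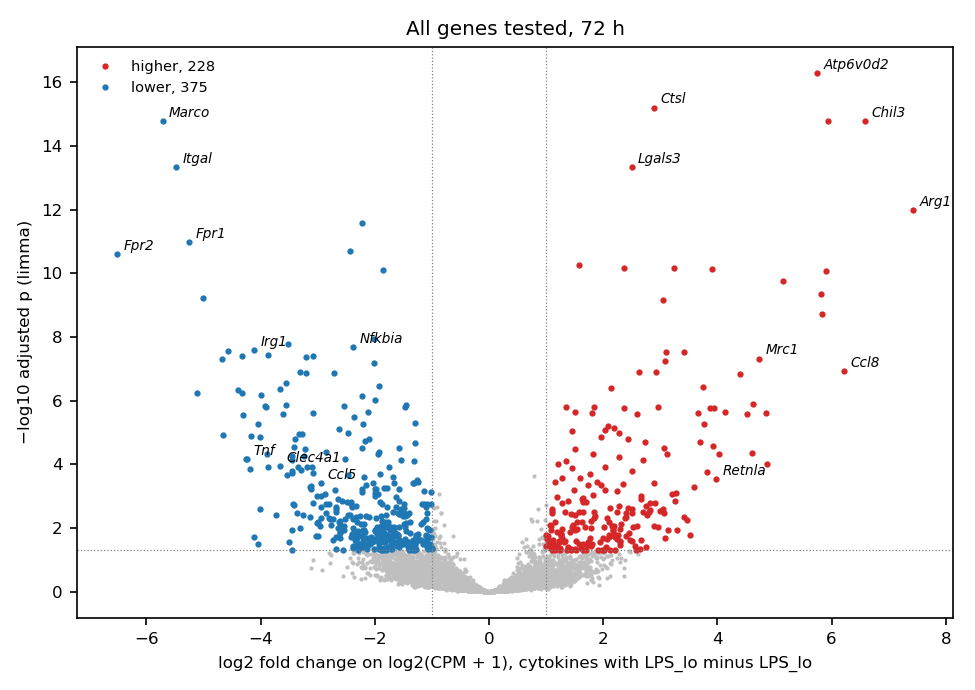
Log2 fold change (x axis, cytokines with LPS_lo minus LPS_lo alone, on log2(CPM + 1)) against −log10 of the limma adjusted p (y axis) for the 11788 genes tested, with the 228 called higher and the 375 called lower in colour. Arg1 and Chil3 lie far to the right and Fpr2 and Marco far to the left.

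Arg1, which splits arginine into ornithine and urea, was at 846, 1189, 504, 888 and 1289 CPM in the 5 cultures with the cytokines and between 0 and 31.4 CPM, with a median of 3.60, in the 11 LPS cultures. The groups were far apart, and its log2 fold change of 7.43 (SE 0.70, limma adjusted p = 1.05e-12) was the largest rise among the genes named here. The 4 LPS cultures of pool A2 had 14.1 to 31.4 CPM and the other 7 at most 4.10 CPM, and within pool A2 the log2 fold change of Arg1 was 5.22. Chil3, which encodes a chitinase-like lectin, was at 318, 150, 263, 78.0 and 78.8 CPM against 0 to 3.52 CPM, a log2 fold change of 6.58 (SE 0.52, adjusted p = 1.61e-15). Its only LPS cultures above 0 were the 4 of pool A2. Ccl8, a chemokine for monocytes and other leukocytes, reached 2397, 1611, 2620, 863 and 1372 CPM, while the LPS cultures ranged from 1.49 to 121 CPM (log2 fold change 6.22, SE 0.84, adjusted p = 1.17e-07). The lowest culture with the cytokines was still well above the highest LPS culture.

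The transcription factor Egr2 was at 122, 130, 102, 88.0 and 62.8 CPM against at most 2.98 CPM with LPS alone, a log2 fold change of 5.91 (SE 0.63, adjusted p = 8.55e-11). The homeobox gene Msx3 had 58.6, 59.8, 57.0, 111 and 94.2 CPM against at most 1.57 CPM (5.93, SE 0.47, adjusted p = 1.61e-15). Both were close to 0 in every LPS culture. The collagenase Mmp13 was at 417, 656, 205, 273 and 278 CPM against 0 to 15.9 CPM, and the integrin subunit Itgax (CD11c) at 492, 461, 728, 126 and 236 CPM against 0 to 21.3 CPM. Their log2 fold changes were 5.84 (SE 0.69) and 5.82 (SE 0.65). Itgax was lowest in the 2 cultures of pool Ci1, which were nevertheless above all LPS cultures. Atp6v0d2, a subunit of the vacuolar proton pump, had 660, 662, 370, 522 and 711 CPM against 1.72 to 24.2 CPM, with a log2 fold change of 5.74 (SE 0.41, adjusted p = 5.07e-17).

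The remaining genes among the 15 with the largest rises had log2 fold changes between 4.53 and 5.14. They were the matrix protein Fn1 (5.14), the receptor chain Il20rb (4.87), Fam198b (4.85), the mannose receptor Mrc1 (4.74), Tmem26 (4.63), the carbonyl reductase Cbr2 (4.61) and the cathepsin Ctsk (4.53). Mrc1 was at 288, 305, 201, 239 and 212 CPM, against 1.70 to 17.2 CPM with LPS alone and 90.2 ± 83.8 CPM (SD, n = 25) in untreated cultures. Tmem26 was even between cultures, at 238, 290, 206, 269 and 236 CPM against 2.40 to 29.6 CPM. Fam198b ranged widely, from 16 to 177 CPM, against at most 10.0 CPM with LPS alone.

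**Figure D2:**
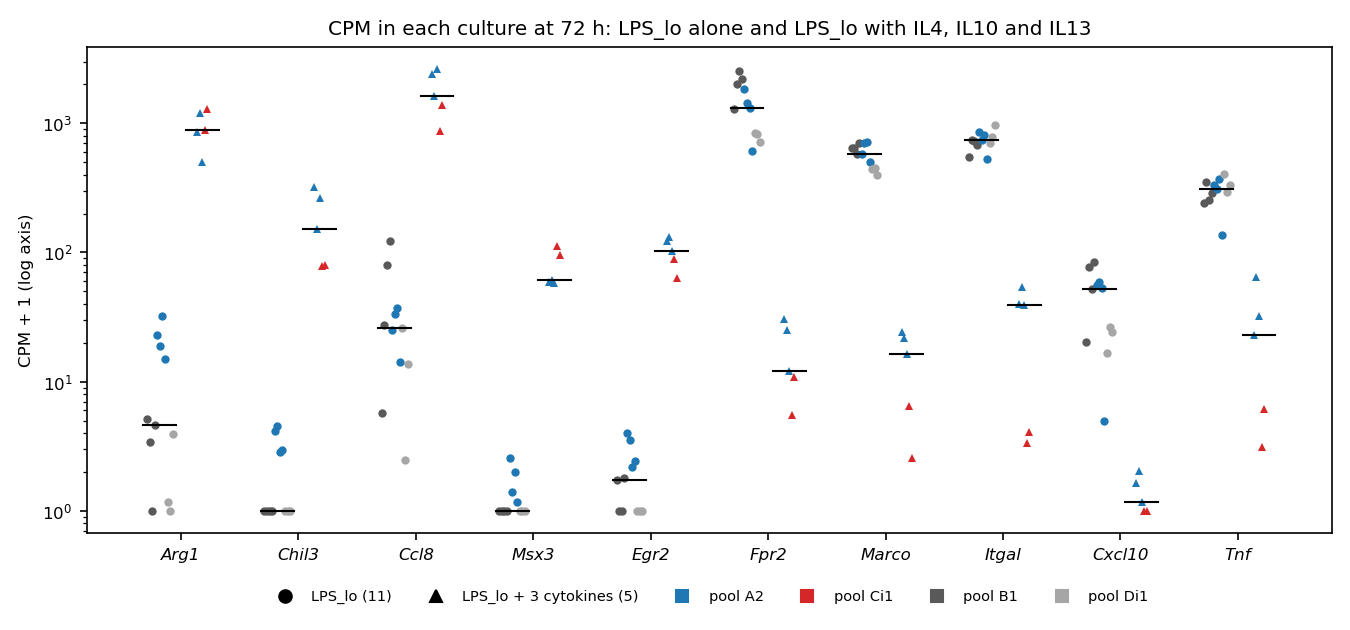
CPM + 1 on a log axis in each of the 11 LPS_lo cultures (circles) and the 5 LPS_lo cultures with IL4, IL10 and IL13 (triangles) for 5 genes that rose and 5 that fell, coloured by library pool, with a line at the median of each group. The 10 genes were picked from genes in which the groups do not overlap. Arg1, Chil3, Msx3 and Egr2 were higher in the 4 LPS cultures of pool A2 than in the other 7.

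Of 36 listed IL4 and IL13 target genes, 29 were tested, 20 rose and none fell. The list was chosen with earlier results of these data known. The median log2 fold change of the 29 was 2.70, against −0.146 over all genes tested, and 2.02 within pool A2. Among all genes tested 1.93% were called higher. Slc7a2, which imports arginine, was at 265, 278, 214, 424 and 316 CPM against 5.14 to 33.7 CPM (log2 fold change 4.39, SE 0.60, adjusted p = 1.48e-07). Retnla was much lower than these, at 52.4, 24.6, 28.3, 55.2 and 44.3 CPM against 0 to 13.9 CPM (3.98, SE 0.79, adjusted p = 0.000297). The Retnla groups did not overlap, but the 4 LPS cultures of pool A2 had 9.14 to 13.9 CPM and the other 7 at most 0.178 CPM, and within pool A2 the log2 fold change was 1.48 (adjusted p = 0.0727). Ccl24, an eosinophil chemokine, was listed at 0 in all 11 LPS cultures and at 16.6, 3.70, 7.99, 0 and 0.515 CPM with the cytokines. The chemokines Ccl17 and Ccl22 did not pass the filter on low values: Ccl17 was at 0 in all 16 cultures, and Ccl22 at 0 with the cytokines and at most 0.801 CPM without.

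Of 5 tested receptor genes of the 3 cytokines, Il4ra rose and Il10ra fell (20.0% each), with a median log2 fold change of 0.0386. Over all genes tested 1.93% rose and 3.18% fell. Il4ra was at 76.8, 66.8, 74.6, 356 and 755 CPM against 36.7 to 87.1 CPM, a log2 fold change of 1.37 (SE 0.44, adjusted p = 0.0477). Its difference lay in the 2 cultures of pool Ci1, and without them the log2 fold change was 0.24 (adjusted p = 0.876). Il10ra was at 22.0, 22.6, 29.1, 5.54 and 45.3 CPM, below all LPS cultures (50.8 to 115 CPM), with a log2 fold change of −1.87 (SE 0.52, adjusted p = 0.0178). That call was lost without culture 4. Il13ra1, the partner chain for IL13, was at 0 to 17 CPM with the cytokines and 0 to 18.4 CPM without, and the difference of 0.21 (SE 0.70) was not called.

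Of 22 tested JAK, STAT and SOCS genes, 2 rose and 2 fell (9.09% each), with a median log2 fold change of −0.35. The shares over all genes tested were 1.93% and 3.18%. The risers were the feedback inhibitors Cish and Socs2, which dampen signalling of cytokine receptors. Cish was at 22.0, 21.2, 30.7, 4.47 and 18 CPM against 0 to 3.60 CPM (log2 fold change 3.42, SE 0.44, adjusted p = 2.85e-08). Socs2 was at 7.39, 16.5, 6.36, 29.2 and 93.2 CPM against 0 to 10.9 CPM (3.27, SE 0.69, adjusted p = 0.000778), and without the 2 cultures of pool Ci1 it was not called (adjusted p = 0.0864). Ptpn6, a phosphatase, was among those that fell, and none fell with plate or pool as a term. Stat6 (log2 fold change −0.48, 95% interval −1.25 to 0.30) and Stat3 (−0.77, −1.83 to 0.29) were not called. Socs3, a STAT3 target, was at 15.4 to 35 CPM against 9.40 to 106 CPM, and Socs1 at 38 to 107 CPM against 4.11 to 41.5 CPM, with neither called (adjusted p = 0.319 and 0.196). Among 22 tested IL10 target genes, 3 rose (Il4ra, Etv3 and Timp1), 4 fell (Tnfrsf1b, Fcgr1, Il10ra and Cd14), and the median was −0.485. Without pool Ci1 1 rose and 4 fell, and with pool as a term 2 rose and 2 fell.

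The promoters of 6 genes named here are shown, chosen after a search of the letters, because they hold spacings that STAT and interferon-regulatory factors are known to prefer. Each is a RefSeq window on the mouse build GRCm38.p6, from 250 bases before to 50 bases after the annotated start, written 5′ to 3′ along the gene. Capitals mark TTCNNNNGAA (STAT6 type) in Retnla, Tmem26 and Itgax, TTCNNNGAA (STAT3 and STAT5 type) in Cish, and GAAANNGAAA on either strand (interferon-response type) in Cxcl10 and Ifit3, which fell.
Retnla, chr16:48842359-48842658, plus strand: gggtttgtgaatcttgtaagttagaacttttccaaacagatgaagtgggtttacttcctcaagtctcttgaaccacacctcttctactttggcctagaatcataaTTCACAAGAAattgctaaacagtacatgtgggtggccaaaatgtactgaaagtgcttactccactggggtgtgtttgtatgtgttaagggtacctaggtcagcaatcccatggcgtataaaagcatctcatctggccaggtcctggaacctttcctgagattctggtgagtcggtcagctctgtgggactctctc
Tmem26, chr10:68723496-68723795, plus strand: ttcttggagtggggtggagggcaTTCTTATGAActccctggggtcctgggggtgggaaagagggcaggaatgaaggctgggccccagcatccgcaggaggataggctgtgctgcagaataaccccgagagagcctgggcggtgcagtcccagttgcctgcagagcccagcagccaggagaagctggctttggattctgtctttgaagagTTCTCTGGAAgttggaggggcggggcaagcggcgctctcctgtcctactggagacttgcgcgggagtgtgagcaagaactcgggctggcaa
Itgax, chr7:128129300-128129599, plus strand: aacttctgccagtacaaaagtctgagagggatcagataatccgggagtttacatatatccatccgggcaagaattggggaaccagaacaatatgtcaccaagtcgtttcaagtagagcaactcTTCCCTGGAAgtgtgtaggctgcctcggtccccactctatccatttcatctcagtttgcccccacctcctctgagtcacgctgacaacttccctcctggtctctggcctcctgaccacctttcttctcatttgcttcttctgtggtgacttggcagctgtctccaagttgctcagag
Cish, chr9:107296409-107296708, plus strand: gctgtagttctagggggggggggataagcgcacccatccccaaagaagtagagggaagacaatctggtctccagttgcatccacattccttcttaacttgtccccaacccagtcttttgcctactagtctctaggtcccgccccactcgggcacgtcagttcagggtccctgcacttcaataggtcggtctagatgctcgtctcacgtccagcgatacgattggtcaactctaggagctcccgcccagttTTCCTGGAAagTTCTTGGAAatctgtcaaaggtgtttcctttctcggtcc
Cxcl10, chr5:92348840-92349139, minus strand: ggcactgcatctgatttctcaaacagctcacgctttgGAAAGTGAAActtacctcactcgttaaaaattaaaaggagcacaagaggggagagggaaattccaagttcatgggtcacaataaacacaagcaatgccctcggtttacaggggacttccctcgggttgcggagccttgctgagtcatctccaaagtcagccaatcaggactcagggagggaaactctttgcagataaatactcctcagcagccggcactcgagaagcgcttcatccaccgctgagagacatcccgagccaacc
Ifit3, chr19:34583279-34583578, plus strand: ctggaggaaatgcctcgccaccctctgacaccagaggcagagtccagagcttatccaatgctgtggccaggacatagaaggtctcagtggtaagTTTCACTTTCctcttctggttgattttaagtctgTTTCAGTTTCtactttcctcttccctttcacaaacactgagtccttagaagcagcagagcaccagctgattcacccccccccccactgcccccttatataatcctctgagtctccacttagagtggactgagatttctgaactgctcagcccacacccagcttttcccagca
The first 2 motifs read the same on both strands, and Cish holds its pair right at the start site.

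Over all 27025 genes with such a window, 8.01% held TTCNNNNGAA, 9.55% TTCNNNGAA and 3.99% GAAANNGAAA on either strand. Of the genes tested, from which the called genes came, 8412 had a window. Their shares were 6.57%, 8.20% and 4.02% in the same order. Of the genes that rose, 164 had a window, and 16 of these (9.76%) held TTCNNNNGAA, 13 (7.93%) TTCNNNGAA and 5 (3.05%) GAAANNGAAA. Of the genes that fell, 275 had a window, and 21 (7.64%), 31 (11.3%) and 38 (13.8%) held the 3 motifs in the same order. These are matches of letters in a short window, not binding sites.

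The genes with the largest falls included several cell-surface receptors of myeloid cells. Fpr2, a receptor for formylated bacterial peptides, was at 29.7, 24.0, 11.1, 4.47 and 9.78 CPM with the cytokines and at 607 to 2545 CPM, with a median of 1319, with LPS alone. Its log2 fold change was −6.51 (SE 0.67, limma adjusted p = 2.52e-11), and untreated cultures had 44.9 ± 47.3 CPM (SD, n = 25). Its neighbour in function Fpr1 was at 6.46, 9.10, 3.27, 4.26 and 21.6 CPM against 262 to 349 CPM (−5.25, SE 0.52, adjusted p = 1.05e-11). The scavenger receptor Marco was at 23.1, 20.8, 15.4, 5.54 and 1.54 CPM against 393 to 709 CPM (−5.72, SE 0.46, adjusted p = 1.61e-15). In all 3 genes the highest culture with the cytokines was far below the lowest LPS culture. The integrin subunit Itgal (CD11a) was at 38.6, 52.9, 38, 2.34 and 3.09 CPM against 531 to 964 CPM (−5.48, SE 0.48, adjusted p = 4.48e-14), with the lowest values in the 2 cultures of pool Ci1. Within pool A2 its log2 fold change was −4.05.

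Several paired immune receptors fell as well. Siglece, an inhibitory sialic acid receptor, was at 1.85, 3.26, 2.00, 2.34 and 5.15 CPM against 29.7 to 169 CPM (log2 fold change −4.32, SE 0.62, adjusted p = 5.59e-07). The paired receptors Pilra (−4.30), Pilrb1 (−4.17) and Pilrb2 (−4.40), the lectin-like receptor Klra2 (−5.01) and Ms4a4c (−5.10) belong to families with close copies, so the split of reads among their members is uncertain. Slamf9 (−4.56), the ubiquitin ligase Neurl3 (−4.33) and the matrix glycoprotein Thbs1 (−4.18) were also among the 15 largest falls. In each of these 9 genes the cultures with the cytokines lay below all LPS cultures, which the selection of the 15 required.

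Of 23 listed inflammatory cytokines, 10 were tested, 4 fell and none rose, with a median log2 fold change of −1.65. Among all genes tested 3.18% were called lower. Tnf was at 21.9, 63.1, 31.1, 2.13 and 5.15 CPM against 136 to 402 CPM (−4.23, SE 0.77, adjusted p = 6.63e-05), and the untreated mean was 46.4 ± 31.7 CPM (SD, n = 25). Il1b was at 0.515 to 1.63 CPM against 4.54 to 38.8 CPM (−3.61, SE 0.56, adjusted p = 2.67e-06). Both groups were apart in Tnf and in Il1b. The others that fell were Ebi3 and Il15. Il1a, at 2.72 to 13.7 CPM against 0.535 to 94.4 CPM, was not called (adjusted p = 0.168), and Il6 and Il12b were at most 0.0973 CPM with the cytokines and at most 2.51 CPM without and did not pass the filter. Of 8 tested anti-inflammatory cytokines and antagonists, 1 rose (Il6st) and 3 fell (Il10, Tnfrsf1b and Gdf15), with a median of 0.104. Without pool Ci1 only Il10 fell (median −0.124), and with pool as a term none did (median −0.109). Gdf15, a stress-induced cytokine, was at 38.8, 41.5 and 35.6 CPM in pool A2 and 0.426 and 0 CPM in pool Ci1, against 37.8 to 232 CPM (log2 fold change −3.42, and −1.40 with adjusted p = 0.265 without pool Ci1). Tnfrsf1b also lost its call without pool Ci1 (adjusted p = 0.0782) or without any 1 of cultures 3 to 5 (adjusted p of up to 0.244). The Il10 transcript itself was at 0, 0.243, 0, 2.56 and 0 CPM against 0 to 11.8 CPM (−1.88, SE 0.45, adjusted p = 0.00407), a difference of few reads. Il1rn, the IL1 receptor antagonist, was at 13.8 to 87.5 CPM against 0.212 to 24.8 CPM and was not called (adjusted p = 0.269).

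The chemokines split. Of 12 tested CC chemokines, Ccl6, Ccl8 and Ccl24 rose and Ccl5 fell (median 0.919). Ccl6 was at 926, 891, 764, 2186 and 2450 CPM against 148 to 659 CPM (log2 fold change 1.70, SE 0.38, adjusted p = 0.00154), although it was not called without the 2 cultures of pool Ci1 (adjusted p = 0.119). Ccl5, a chemokine for T cells, was at 1382, 923, 1650, 1866 and 1764 CPM against 5350 to 15214 CPM (−2.94, SE 0.59, adjusted p = 0.000376). It was well below LPS alone and still above the untreated mean of 204 ± 186 CPM (SD, n = 25). Of 7 tested CXC chemokines, Pf4 rose and Cxcl9, Cxcl10 and Cxcl13 fell (median −0.984). Cxcl10, an interferon-induced ligand of Cxcr3 whose promoter is shown above, was at 0.646, 1.02, 0.182, 0 and 0 CPM against 3.99 to 83.3 CPM (−4.68, SE 0.61, adjusted p = 4.75e-08). Cxcl9 was at or under 1.66 CPM in 4 cultures and at 31.8 CPM in culture 5, against 2.22 to 47.7 CPM (−2.94, SE 0.72, adjusted p = 0.00498). Of 8 tested chemokine receptors, Ccr1 and Ccr3 rose and Cx3cr1 fell (median −0.192). Without pool Ci1 only Ccr1 passed the test (median 0.116), and the median was also positive with plate (0.492) or pool (0.427) as a term.

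All 42 listed type I interferon-stimulated genes had negative log2 fold changes, with a median of −1.30, and 12 of them (28.6%) were called lower. Of all 11788 genes tested, 6866 had negative log2 fold changes, with a median of −0.146, and 3.18% were called lower. The summed level of the 42 genes differed between the pools among the cultures with LPS and the cytokines. It was 4409 to 5051 CPM in the 3 cultures of pool A2 and 9685 to 9899 CPM in the 2 cultures of pool Ci1, against 11523 to 15982 CPM in the LPS cultures. With the cytokines but no LPS it was 1321 to 1703 CPM in pool A2 and 862 to 902 CPM in pool Ci1, and with LPS and IL10 it was 10428 to 10737 CPM in pools A1 and A2 and 12186 to 13607 CPM in pool Ci1. With LPS and IL4 it was 7559 to 11461 CPM in pool A1 and 10983 CPM in pool Ci1. With LPS and IL13 it was 8375 to 13248 CPM in pool A2 and 13138 CPM in pool Ci1. Each culture with LPS and the 3 cytokines was below each culture with LPS alone, by a margin that differed between pools. The 2 of pool Ci1 lay within the range of the cultures with LPS and IL4 and of those with LPS and IL13. Ifit3, an antiviral gene, was at 147, 255 and 130 CPM in pool A2 and 975 and 1234 CPM in pool Ci1, against 1020 to 2839 CPM (log2 fold change −2.26, SE 0.70, adjusted p = 0.0398). The Ifit3 call was lost when any 1 of cultures 1 to 3, or any of 5 LPS cultures, was left out, with an adjusted p of up to 0.16. Its near copy Ifit3b (−3.29, SE 0.63, adjusted p = 0.000146) and Slfn1 (−3.23, SE 0.56, adjusted p = 3.21e-05) were called, and reads of Ifit3 and Ifit3b cannot be fully told apart. Without the 2 cultures of pool Ci1, 18 of the 42 genes were called lower, with pool A2 alone 20, with plate as a term 11 and with pool as a term 8. Whether the pool itself or the position on the plate moved these genes was not tested.

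**Figure D3:**
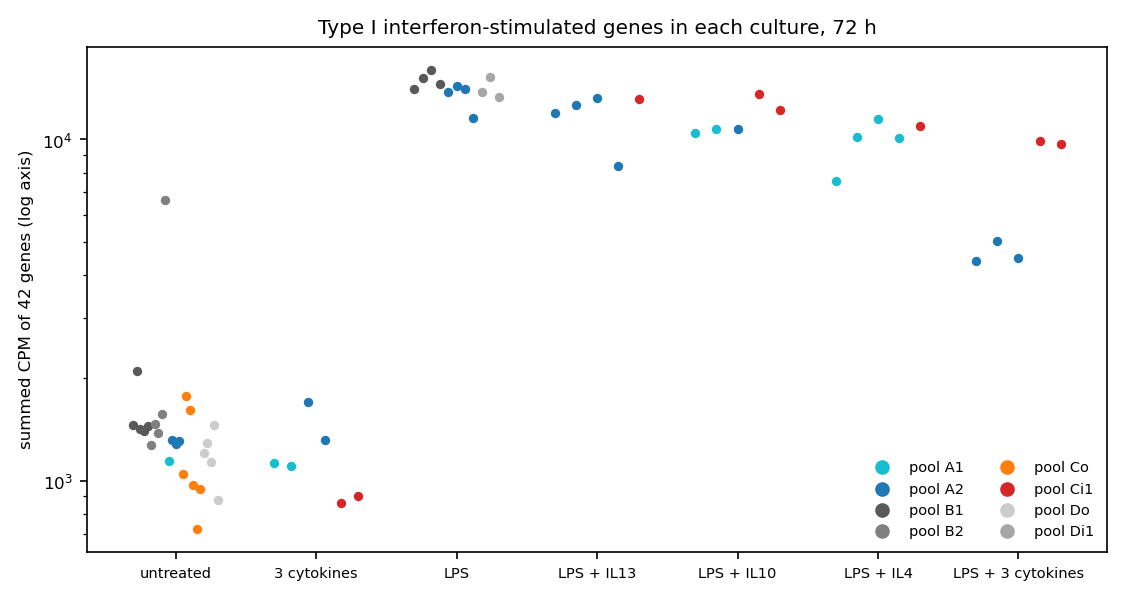
Summed CPM of the 42 type I interferon-stimulated genes in each culture of the 7 groups at 72 h, on a log axis, coloured by library pool. Among LPS cultures with the 3 cytokines the 3 of pool A2 lie between 4409 and 5051 CPM and the 2 of pool Ci1 between 9685 and 9899 CPM, all below the 11 LPS_lo cultures.

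Of 22 tested genes of antigen presentation through MHC class I, 8 fell (36.4%), none rose and 14 were not called, with a median of −0.967. Among all genes tested 3.18% fell and 1.93% rose. With plate or pool as a term 4 fell, without pool Ci1 5, and under each of these and with median-of-ratios scaling (7 fell) Calr, a chaperone of peptide loading, rose. H2-K1 was at 2490, 2203, 2416, 1950 and 1543 CPM against 3999 to 8802 CPM (log2 fold change −1.57, SE 0.33, adjusted p = 0.00058), and H2-D1 at 2011 to 3220 CPM against 4188 to 6661 CPM (−1.01, SE 0.21, adjusted p = 0.00074). H2-D1 sat at the edge of the fold threshold, and its log2 fold change was −0.77 without pool Ci1. H2-Q7, which has close copies, was at 116, 104 and 102 CPM in pool A2 and 668 and 490 CPM in pool Ci1, against 620 to 1199 CPM (−2.06, SE 0.58, adjusted p = 0.0188), and lost its call without any 1 of cultures 1 to 3 (adjusted p of up to 0.0888). Of 8 tested class II genes only Ifi30, a lysosomal thiol reductase, rose, and none fell (median −0.261, and 0.226 with plate and 0.309 with pool as a term). Of 15 tested guanylate-binding proteins and immunity-related GTPases 5 fell and none rose (median −1.51), though none was called with plate as a term in the model, 2 with pool as a term and 9 without pool Ci1. Gbp2 was at 26.4, 69.3, 57.8, 122 and 23.2 CPM against 183 to 470 CPM (−2.60, SE 0.68, adjusted p = 0.00979), and was not called without culture 5 (adjusted p = 0.0579).

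Components of LPS sensing and NF-kB feedback were lower. Of 24 tested NF-kB subunits and feedback inhibitors, 8 fell and none rose (median −1.24), and of 20 Toll-like receptors and adaptors 5 fell and none rose (median −0.671). With pool as a term 5 NF-kB genes fell and Bcl2a1b, which has close copies, rose, and 3 Toll-like receptors and adaptors fell, as without pool Ci1. Nfkbia, the inhibitor that NF-kB induces against itself, was at 45.2, 75.1, 37.5, 38.1 and 39.1 CPM against 135 to 378 CPM (log2 fold change −2.38, SE 0.30, adjusted p = 2.01e-08). Irak3, a brake on Toll-like receptor signalling, was at 5.17 to 40.2 CPM against 62.0 to 180 CPM (−3.27, SE 0.54, adjusted p = 1.11e-05), and Nfkbiz fell by 3.08. Tlr2, the receptor for bacterial lipoproteins, was at 4.98, 7.06, 3.63, 5.11 and 3.60 CPM against 54.3 to 131 CPM (−3.92, SE 0.59, adjusted p = 1.51e-06). Cd14, the co-receptor for LPS, was at 13.4 to 30.3 CPM against 56.8 to 175 CPM (−2.15, SE 0.44, adjusted p = 0.000428). None of these 5 genes overlapped between the groups. Of 11 tested costimulatory and adhesion molecules, Pdcd1lg2, a ligand of PD-1, rose and Icam1, Cd69, Itgal and Itgb2 fell (median −1.27). Without pool Ci1 none rose and 2 fell (Cd69 and Itgal), since the log2 fold change was then 1.15 for Pdcd1lg2 (adjusted p = 0.211) and −0.36 for Itgb2 (adjusted p = 0.396). The Itgb2 call was also lost without culture 4 or culture 5 alone (adjusted p of up to 0.0744). Cd40 and Cd86 were not called, at 3.51 to 20.2 and 0 to 21.3 CPM with the cytokines and 3.03 to 37.6 and 1.91 to 24.7 CPM without.

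C-type lectins and Fc receptors changed in opposite directions within a family. Of 14 tested C-type lectins, Clec7a, Clec10a and Mgl2 rose (21.4%) and 5 fell (35.7%), with a median of −1.30. Among all genes tested 1.93% rose and 3.18% fell. Clec7a (dectin-1), which binds fungal glucans, was at 797, 796, 449, 858 and 905 CPM against 157 to 296 CPM (log2 fold change 1.81, SE 0.28, adjusted p = 2.38e-06). Clec4a1 was at 496, 308, 191, 301 and 190 CPM against 2093 to 4856 CPM (−3.66, SE 0.69, adjusted p = 0.00011), and Clec12a and Clec4e (Mincle) fell by 3.52 and 3.45. Of 6 tested Fc receptors, 3 rose and Fcgr1 fell (median 0.362). The inhibitory receptor Fcgr2b was at 1375, 1792, 1039, 773 and 875 CPM against 92.5 to 387 CPM (2.28, SE 0.41, adjusted p = 5.87e-05). Fcgr3 was at 693, 669, 798, 983 and 1216 CPM against 252 to 327 CPM (1.57, SE 0.16, adjusted p = 5.45e-11), and Fcgrt rose by 1.89. Fcgr1, the high-affinity receptor, was at 86.9 to 234 CPM against 212 to 594 CPM (−1.49, SE 0.34, adjusted p = 0.00237). Of 17 tested complement genes, Itgax rose and C1qa, Cfb, Cfp and Itgam fell (median −0.823), and without pool Ci1 or with median-of-ratios scaling Cfb and Cfp alone fell. Cfb, a protease of the alternative pathway, was at 8.55, 5.21, 5.27, 49.9 and 21.6 CPM against 42.4 to 335 CPM (−3.54, SE 0.69, adjusted p = 0.000219), and Cfp (properdin) fell by 1.19 and was not called without culture 2 (adjusted p = 0.0532). C3 was not called (adjusted p = 0.104). Of 16 tested scavenger and phagocytic receptors, Cd36, Mrc1 and Cd68 rose and Msr1, Marco and Timd4 fell (median −0.515).

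In metabolism, the enzymes that compete for arginine moved apart. Arg1 and Slc7a2 rose, and Nos2 and Irg1 fell (14.3% each), among 14 tested genes of arginine, nitric oxide and itaconate metabolism (median −0.16). The shares over all genes tested were 1.93% higher and 3.18% lower. Irg1, which makes itaconate, was at 8.30, 12.3, 1.63, 10.4 and 1.03 CPM against 33.8 to 188 CPM (log2 fold change −4.11, SE 0.52, adjusted p = 2.5e-08). Nos2, the inducible nitric oxide synthase, was at 0.738, 0.146, 0, 0 and 0 CPM against 0.663 to 35 CPM (−2.96, SE 0.76, adjusted p = 0.00851), and was not called without pool Ci1 (adjusted p = 0.0705). Of 13 tested prostaglandin and leukotriene enzymes, Ptgs1 rose and Ptgs2, Ptges and Alox5ap fell (median −0.133). With plate or pool as a term or without pool Ci1, 1 fell and the median was positive (0.141, 0.369 and 0.0614). Alox5ap, a helper of leukotriene synthesis, was at 147, 149, 150, 6.61 and 12.4 CPM against 134 to 372 CPM, so that it was low only in the 2 cultures of pool Ci1 (log2 fold change −1.87, and −0.31 with adjusted p = 0.853 without them). Leaving out either of the 2 alone also ended the call (adjusted p of up to 0.227). Ptgs1 was at 25.3, 20.4, 18.5, 47.1 and 105 CPM against 0 to 6.76 CPM (3.69, SE 0.63, adjusted p = 1.93e-05). Ptgs2 was at 4.70, 4.67, 2.00, 0.426 and 0 CPM against 2.5 to 19.2 CPM (−1.70, SE 0.50, adjusted p = 0.0264), overlapped between groups, and was not called without pool Ci1 (adjusted p = 0.475).

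Of 26 tested glycolysis and hypoxia genes, 7 fell (26.9%) and 1 (Hk3) rose (3.85%), with a median of −0.865. Among all genes tested 3.18% fell and 1.93% rose. With pool as a term 2 fell and none rose, in pool A2 alone 1 fell, and without pool Ci1 5 fell, Hk3 and Ldha rose and the median was −0.239. Hif1a, the oxygen-regulated transcription factor, was at 53.9 to 134 CPM against 152 to 298 CPM (log2 fold change −1.39, SE 0.33, adjusted p = 0.00343). Vegfa was at 0 in 3 cultures and at most 1.53 CPM, against 3.02 to 17.9 CPM (−2.87, SE 0.61, adjusted p = 0.000822). Of 27 tested lipid handling genes, 4 rose and 2 fell (median 0.0875), with 2 rises without pool Ci1 and 6 with pool as a term, and the fatty acid carriers Fabp5 and Fabp4 were among the risers. Fabp5 was at 467, 553, 482, 925 and 826 CPM against 97.7 to 434 CPM (1.60, SE 0.32, adjusted p = 0.000264), while Fabp4 rose by 2.81 and was not called without pool Ci1 (adjusted p = 0.0568). Of 14 tested iron and metallothionein genes, Mt1, Mt2 and Trf rose and Lcn2, Cp and Slc39a4 fell (median −0.474). Lcn2, which captures bacterial siderophores, was at 36.2, 40.5, 46.1, 5.54 and 5.66 CPM against 155 to 620 CPM (−3.90, SE 0.59, adjusted p = 1.61e-06). The ferroxidase Cp was at 3.32 to 27.7 CPM against 42.8 to 233 CPM (−4.04, SE 0.65, adjusted p = 5.38e-06). Of 16 tested NRF2 targets 1, Nfe2l2, fell (6.25%, near the share of all genes tested) and none rose (median −0.467). With plate as a term 3 fell, with pool as a term, with median-of-ratios scaling and without pool Ci1 none did, and without pool Ci1 the median was 0.286.

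Of 24 disease-associated microglia genes, all tested, 12 rose (50.0%), 1 (Cd52) fell (4.17%) and 11 were not called, with a median log2 fold change of 1.19. The shares over all genes tested were 1.93% higher and 3.18% lower. Lgals3, a galactose-binding lectin, was at 9005, 9242, 10415, 4219 and 5462 CPM against 782 to 1780 CPM (2.5, SE 0.22, adjusted p = 4.48e-14). Spp1 (osteopontin) was at 2240, 1703, 1851, 451 and 434 CPM against 60.1 to 235 CPM (3.24, SE 0.34, adjusted p = 6.96e-11). Both were lowest in the 2 cultures of pool Ci1 and still above all LPS cultures. Igf1, a growth factor for neurons and myelin-forming cells, was at 1743, 1841, 1552, 589 and 794 CPM against 320 to 699 CPM (1.46, SE 0.28, adjusted p = 0.000132), and culture 4 lay within the range of LPS alone. Cd68, a lysosomal membrane protein, rose by 1.10 (SE 0.26, adjusted p = 0.00326) and had a log2 fold change of 0.92 without culture 3. Apoe, the main lipid carrier of the brain, was at 5277 to 8733 CPM against 4517 to 16915 CPM and was not called (−0.23, 95% interval −0.85 to 0.39). Its untreated mean was 34262 ± 16208 CPM (SD, n = 25), so both LPS groups were far below untreated cultures.

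Of 22 tested lysosomal and cathepsin genes, 5 rose (22.7%) and 1 (Ctsc) fell (4.55%), with a median of 0.492 and 3 rises in pool A2 alone. Among all genes tested 1.93% rose and 3.18% fell. The cathepsin Ctsl was at 6471, 4473, 4193, 3418 and 4201 CPM against 466 to 1036 CPM (log2 fold change 2.90, SE 0.22, adjusted p = 6.17e-16), and the difference was of a like size within pool A2 (3.19). Of 12 tested matrix metalloproteinases and inhibitors, 5 rose and Mmp14 fell (median 1.04). Mmp12, the macrophage elastase, was at 939, 1444, 713, 46.3 and 87.0 CPM against 1.70 to 96.3 CPM (3.93, SE 0.68, adjusted p = 2.71e-05), so that both cultures of pool Ci1 lay within the range of LPS alone. The inhibitor Timp2 was at 1510, 1455, 1315, 2063 and 3306 CPM against 225 to 473 CPM (2.37, SE 0.25, adjusted p = 6.96e-11), and Timp1 rose by 3.58. Of 13 tested growth factors and colony-stimulating factor receptors, Igf1, Pdgfc and Hbegf rose and Vegfa fell (median 0.369).

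Of 17 tested homeostatic microglia genes, 2 rose (11.8%), Il7r among them, and Cx3cr1 fell (5.88%), with a median of 0.133. Over all genes tested 1.93% rose and 3.18% fell. Without pool Ci1 none of the 17 rose or fell. Cx3cr1, the fractalkine receptor, was at 8.55, 5.18, 7.66, 1.30 and 4.63 CPM against 9.43 to 111 CPM (log2 fold change −3.44, SE 0.91, adjusted p = 0.0112), and was not called without culture 4 (adjusted p = 0.0553). P2ry12, the ADP receptor of resting microglia, was at most 11.3 CPM in any of the 16 cultures, and Naaa and Slpi were at 5.17 to 12.7 and 0 to 6.90 CPM with the cytokines and 5.68 to 26 and 0 to 7.63 CPM without, none of them called. Of 30 tested proliferation genes only Ccnd2 fell (median −0.481), and none was called with plate or pool as a term or without pool Ci1, where the medians were 0.321, 0.44 and −0.208. Of 16 inflammasome and cell death genes only Nlrc4 fell (6.25%, median −0.725), a call lost with pool as a term and without pool Ci1, where Pycard rose.

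With plate as a term, with pool as a term, without pool Ci1 and in pool A2 alone, the listed IL4 and IL13 targets that rose numbered 19, 20, 16 and 13, and the disease-associated microglia genes that rose 14, 13, 12 and 13.

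**Figure D4:**
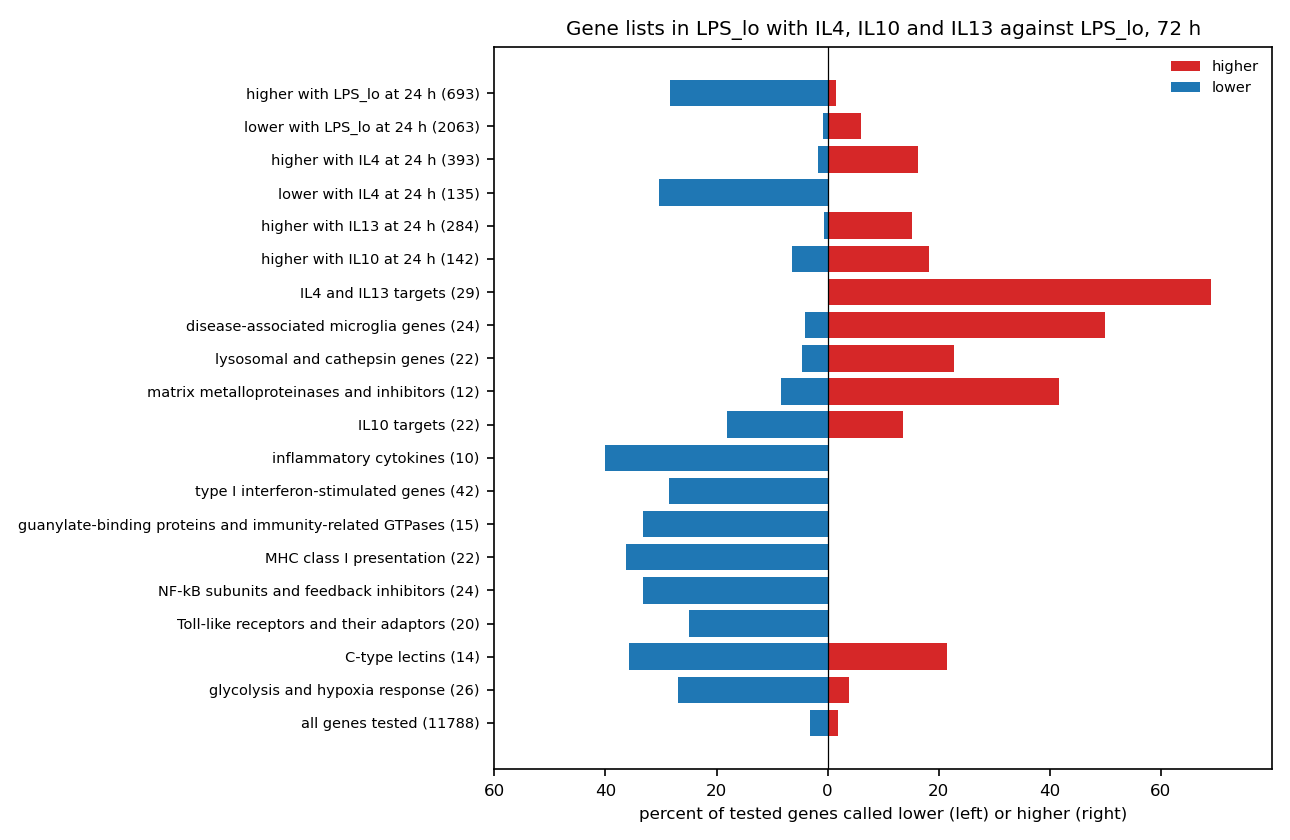
Percent of the tested genes of each list that were called lower (bars to the left) or higher (bars to the right) in LPS_lo with IL4, IL10 and IL13 against LPS_lo alone, beside all genes tested. Of the 29 IL4 and IL13 targets 20 rose and none fell, while 12 of the 42 type I interferon-stimulated genes fell and none rose.

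Lists of genes called with each stimulus alone against untreated cultures at 24 h came from other cultures of the series. Those cultures came from several cell lots and plates, which differed between the stimuli, and the fit had no term for either. A response to a stimulus and a difference between lots or plates can therefore not be fully told apart in these lists. For comparison, 1.93% of all genes tested rose and 3.18% fell with the cytokines at 72 h, with a median log2 fold change of −0.146. Of 693 tested genes that were higher with LPS_lo at 24 h, 197 (28.4%) fell and 10 (1.44%) rose, and the median log2 fold change was −1.10. Without pool Ci1, 179 of 687 such genes fell and 8 rose, and with pool as a term 121 of 693 fell and 11 rose. Of 2063 genes that were lower with LPS_lo at 24 h, 123 (5.96%) rose and 17 (0.824%) fell (median 0.109), with 4 falls with pool as a term. Genes higher with IL4 at 24 h rose in 64 of 393 cases (16.3%) and fell in 7 (1.78%), with a median of 0.321. Genes lower with IL4 fell in 41 of 135 cases (30.4%) and never rose (median −0.784). For IL13, 43 of 284 genes (15.1%) of the higher list rose and 2 (0.704%) fell (median 0.0834, and −0.0397 without pool Ci1). Of the lower list 20 of 55 (36.4%) fell and 1 (1.82%) rose (median −1.07). For IL10, 26 of 142 genes (18.3%) of the higher list rose and 9 (6.34%) fell (median 0.0613, and −0.0109 without pool Ci1). Of the lower list 7 of 35 (20.0%) fell and 2 (5.71%) rose (median −0.633, and −0.054 without pool Ci1). The IL4 and IL13 lists share genes: 162 tested genes were in both higher lists, and 43 of them (26.5%) rose and 2 (1.23%) fell (median 0.581).

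Beside LPS with IL4 alone, 20 of the genes tested were called (0.170%), 7 higher (0.0594%) and 13 lower (0.110%). Of the cultures with IL4, 4 were in pool A1 and 1 in pool Ci1, so the groups shared only pool Ci1. Treatment and pool can therefore not be told apart in this contrast. With 5 cultures against 5 its standard errors were also larger than in the main comparison (0.82 against 0.70 for Arg1). Ctsl was at 4551 ± 1143 CPM (SD, n = 5) with the mix and 1209 ± 373 CPM (SD, n = 5) with IL4 (log2 fold change 1.93, limma adjusted p = 2.16e-06). The mix was also higher in Bex1 (3.65, adjusted p = 2.16e-06), Chil3 (2.68, adjusted p = 0.0325), Mfge8 (2.01, adjusted p = 0.00874), a bridge for the uptake of dying cells, and Spp1 (1.73, adjusted p = 0.0396). Lower than with IL4 were Marco (−3.45, adjusted p = 6.93e-05), Irg1 (−3.35, adjusted p = 0.00197), C3 (−3.23, adjusted p = 0.00742), Slc13a3 (−3.05, adjusted p = 0.025) and Clec12a (−2.38, adjusted p = 0.0237). C3 was at 93.3 ± 39.4 CPM with IL4 and 9.44 ± 5.61 CPM with the mix. Arg1 (712 ± 196 and 943 ± 311 CPM), Egr2, Itgax, Mrc1 and Tmem26 had log2 differences of 0.29 to 0.73, none of them called, and the 95% interval for Egr2 ran from −1.19 to 1.77. The number of calls ranged from 4, with only the groups compared in the fit, to 55, with plate as a term (28 higher and 27 lower), and without pool Ci1 7 were higher and 3 lower.

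Beside LPS with IL10 alone, 205 genes were called (1.74%), 139 higher (1.18%) and 66 lower (0.560%). The balance was even with only the groups compared in the fit (56 higher and 54 lower) and without pool Ci1 (41 and 40), and with plate as a term 362 genes were called, 232 higher and 130 lower. The mix was higher in Mmp13 (6.14, adjusted p = 2.32e-07), Arg1 (5.72, adjusted p = 2.13e-06), Msx3 (5.62, adjusted p = 3.71e-11), Egr2 (5.03, adjusted p = 3.71e-06) and Itgax (4.99, adjusted p = 8.56e-06). It was lower in Fpr2 (−4.79, adjusted p = 3.66e-05), Pilrb2 (−4.03, adjusted p = 0.000266), Pilrb1 (−3.99, adjusted p = 0.00154), Abi3 (−3.97, adjusted p = 0.000512) and Slamf9 (−3.93, adjusted p = 0.000116). Some genes had higher means with IL10 beside LPS than with the mix. Apoe was at 20695 ± 5521 CPM (SD, n = 5) with IL10 and 6832 ± 1238 CPM with the mix (−1.58, adjusted p = 0.00671), and Fcgr1 at 509 ± 149 and 146 ± 70.1 CPM (−1.87, adjusted p = 0.00294). With LPS alone Fcgr1 was at 391 ± 111 CPM (SD, n = 11). Its difference between LPS with IL10 and LPS alone was not called (0.38, limma adjusted p = 0.646). Saa3, an acute-phase protein, was at 4684 ± 2740 and 738 ± 408 CPM and was not called (−2.63, adjusted p = 0.0569). Against LPS alone Saa3 fell (−2.54, SE 0.66, adjusted p = 0.00879), a call that was lost without culture 4 and without pool Ci1 (adjusted p = 0.0551 and 0.176).

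Beside LPS with IL13 alone, 140 genes were called (1.19%), 62 higher (0.526%) and 78 lower (0.662%), and with plate as a term 249, 126 higher and 123 lower. Chil3 (5.77, adjusted p = 2.82e-10), Msx3 (5.52, adjusted p = 7.88e-11) and Tmem26 (5.04, adjusted p = 2.5e-05) were higher with the mix, and Fpr2 (−5.35, adjusted p = 3.5e-06) and Marco (−5.35, adjusted p = 7.88e-11) lower. Arg1 was at 88.8 ± 51.1 CPM (SD, n = 5) with IL13 and 943 ± 311 CPM with the mix (3.48, adjusted p = 0.00942). Marco was at 446 ± 104 CPM with IL13, 118 ± 20.1 CPM with IL4, 113 ± 24.0 CPM with IL10 and 13.3 ± 9.43 CPM with the mix, each time beside LPS. Marco was thus lower with the mix than with each single cytokine (log2 fold change −3.38 against IL10), and the values with IL4 and with IL10 lay within each other's spread. Fpr2 was at 619 ± 226, 59.8 ± 29.3, 393 ± 71.0 and 15.8 ± 10.6 CPM in the same order, and the difference between the mix and IL4 was not called (−1.99, adjusted p = 0.691).

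**Figure D5:**
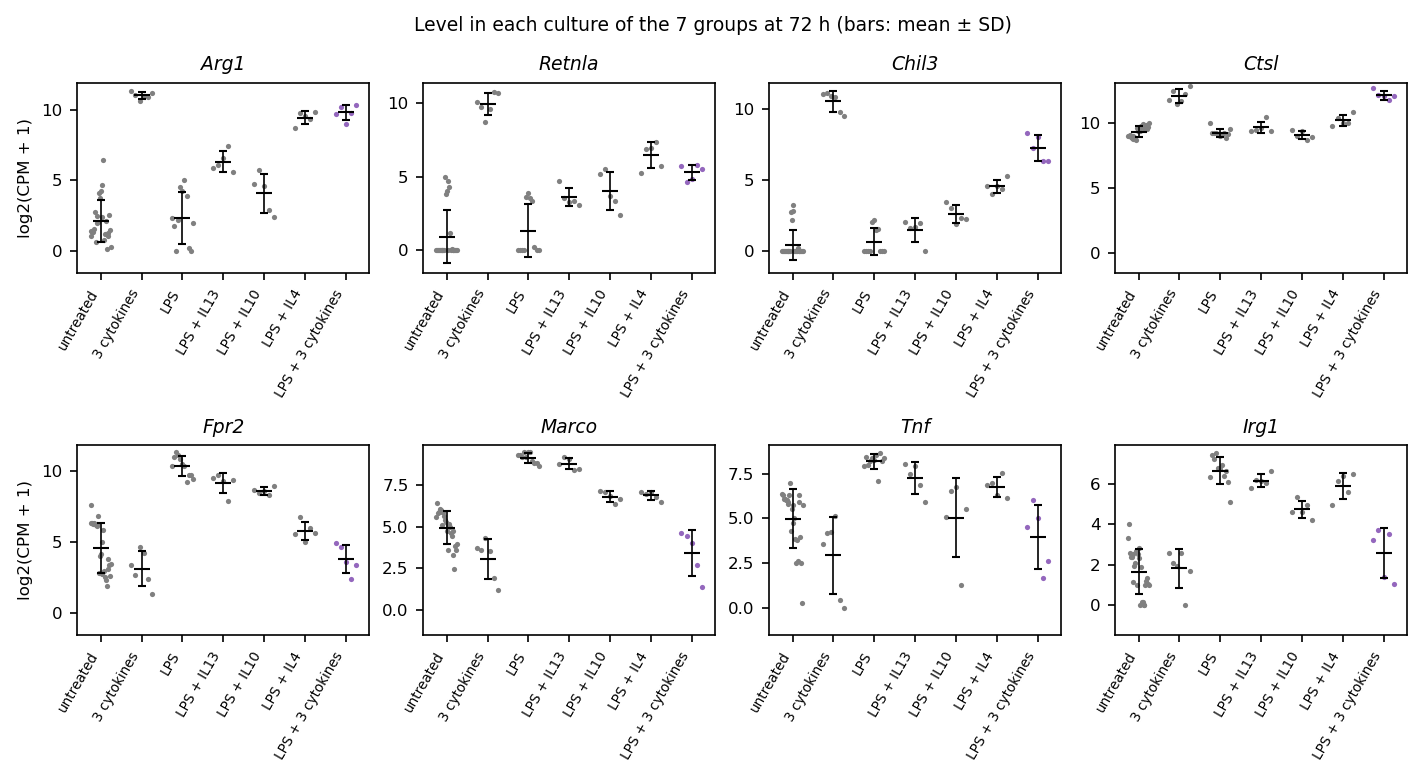
Level of 8 genes as log2(CPM + 1) in each culture (points) of the 7 groups at 72 h, with bars for the mean ± SD. Arg1, Retnla and Chil3 had their highest mean with the 3 cytokines without LPS, and Marco and Fpr2 their lowest means in the 2 groups that received the 3 cytokines.

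The 3 cytokines were also given without LPS, and the interaction term tested whether the effect differed under LPS. Because the labels give no cytokine dose beside LPS, a difference in dose and an effect of LPS cannot be told apart in these values. It was called in 119 genes (1.01%), of which 36 were positive (0.305%) and 83 negative (0.704%). With plate as a term it was called in 281 genes, 130 positive and 151 negative. Retnla was at 1095 ± 527 CPM (SD, n = 6) with the cytokines alone and 41.0 ± 13.9 CPM (SD, n = 5) with LPS and the cytokines, an interaction of −5.03 on the log2 scale (limma adjusted p = 0.0024). Chil3 was at 1583 ± 638 and 178 ± 109 CPM (−3.47, adjusted p = 0.00147). Arg1 was at 2073 ± 344 and 943 ± 311 CPM, and its interaction of −1.43 was not called (adjusted p = 0.662). Ctsl was at 4562 ± 1736 and 4551 ± 1143 CPM in these groups (0.16, adjusted p = 0.932), with 668 ± 180 CPM in untreated cultures. Ccl8 was at 45.1 ± 21.8 CPM with the cytokines alone and 1772 ± 728 CPM with LPS and the cytokines, and its interaction of 2.49 was not called (adjusted p = 0.421). Positive interactions were called for Htr2b, a serotonin receptor (4.05, adjusted p = 0.000137), Pf4 (3.29, adjusted p = 7.38e-05) and Igf1 (1.76, adjusted p = 0.00237).

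Among genes with negative interactions, several were high under LPS alone. Of the genes tested, 1176 differed between LPS alone and untreated cultures (9.98%), 664 higher (5.63%) and 512 lower (4.34%), and this comparison shares its LPS cultures with the one above. In pool A2 alone it called 456 genes, 353 higher and 103 lower. Fpr2 was 5.70 (SE 0.45) above untreated cultures with LPS on the log2 scale and fell by 6.51 with the cytokines, and its interaction was −5.03 (adjusted p = 0.000157). Slc13a3, a carrier of dicarboxylates, was 5.29 (SE 0.39) above untreated cultures with LPS and fell by 3.99 (SE 0.58) with the cytokines (interaction −5.04, adjusted p = 1.85e-05). Irg1 was 5.03 (SE 0.35) above with LPS and fell by 4.11 with the cytokines (interaction −4.26, adjusted p = 5.4e-05). Htr2b went the other way: LPS lowered it (−2.77, SE 0.36) and the cytokines raised it under LPS (3.74, SE 0.53, adjusted p = 3.58e-07). Socs3 was 3.85 (SE 0.37) above untreated cultures with LPS, its change with the cytokines under LPS was not called, and its interaction was −3.59 (adjusted p = 0.0016).

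All 10 listed microglia markers were detected in the 16 cultures, with a summed level of 3473 to 5158 CPM with the cytokines and 3024 to 4885 CPM without. Of these markers Trem2 rose and Cx3cr1, Aif1 and Itgam fell. Among markers of other cells, Gfap, Aqp4 and Fgfr3 of astrocytes, Mog, Olig1 and Sox10 of the oligodendrocyte line and 6 of 10 neuronal markers were at 0 in all 16 cultures, as were 5 of 6 erythrocyte markers and 9 of 14 lymphocyte markers. Other members of these lists were detected: 4 of 10 astrocyte, 5 of 11 oligodendrocyte, 2 of 10 neuronal and 3 of 10 endothelial markers were above 5 CPM in at least 1 culture. Of the markers tested in the astrocyte, oligodendrocyte, neuronal and endothelial lists, only the endothelial Vwf was called, with a rise of 2.46 (adjusted p = 0.0244). Summed levels with and without the cytokines were 2.91 to 68.4 and 0 to 45.5 CPM for astrocytes, 20.6 to 66.9 and 41.7 to 158 CPM for oligodendrocytes, and 0 to 8.71 and 0 to 10.8 CPM for neurons. For endothelial cells they were 29.2 to 61.5 and 21 to 90.1 CPM, for fibroblasts and pericytes 1.55 to 28.2 and 1.96 to 19.5 CPM, for neutrophils 7.42 to 13.8 and 4.74 to 23.7 CPM and for dendritic cells 7.81 to 12.3 and 3.04 to 15.3 CPM.

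The summed levels of the perivascular macrophage and monocyte lists were higher with the cytokines, though members of the first went both ways. The perivascular macrophage list summed to 410 to 1121 CPM with the cytokines and 105 to 276 CPM without. Of its 9 genes 6 were tested, of which 3 rose (Mrc1, Cbr2 and Pf4) and 2 fell, Cxcl13 among them (−2.57). Lyve1 and F13a1 were at 0 in all 16 cultures and Cd163 was at most 2.64 CPM. The monocyte list summed to 176 to 558 CPM with the cytokines and 6.77 to 35.4 CPM without, and of its 3 tested genes Chil3 and Fn1 rose and S100a4 was not called, while Ly6c2 was at 0 in all 16 cultures. The part of such cells in these results was not tested, and Mrc1, Chil3 and Fn1 are also in the IL4 and IL13 target list. Mitochondrially encoded transcripts summed to 2286 to 9235 CPM with the cytokines and 3981 to 13081 CPM without, and none of the 9 was called.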

How the data were processed

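Gene levels were measured in wells of primary mouse microglia by 3′-end sequencing. Per the study's methods, Salmon 0.7.1 placed the reads on Ensembl transcripts, and the authors deposited the gene sums over all mapped reads of a well, that is CPM (the study's word is TPM, but no length correction is described). Cultures with few reads or genes had been removed. The CPM are relative to all mapped reads, and low genes are thinly sampled in the shallowest cultures. Depth was read from the step between low values. Of the low values, 73.1% to 87.0% lay within 0.1 of whole reads, so counts were not rebuilt. The labels name genome build mm8, which differs from the Ensembl release.

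Groups and time points came from the labels. The 62 cultures of the 7 groups at 72 h were fitted together with limma 3.58.1 (R 4.3.3) on log2(CPM + 1) with a trend, for 11788 genes with over 5 CPM in at least 4 cultures. Benjamini-Hochberg adjustment ran over all of these. A log2 fold change on this scale understates the change of low genes. The study tested single genes against a count error model of control cultures, which was not refitted here, and an exact rank-sum test was an alternative. The scripts were tested on simulated data. Python 3.11.15 with numpy 2.4.6, pandas 2.3.3 and matplotlib 3.10.9 did the rest.

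The members, the 33 pathway lists and the 13 marker lists were chosen with earlier results of these data known. Genes named are the 15 largest rises and falls among called genes with a mean of at least 5 CPM in the higher group, no overlap between groups and an official symbol, up to 4 called genes of each list with the smallest adjusted p, fixed cytokine-response genes, and the 5 largest rises and falls of each other contrast, with list members named only as part of a count. Alternatives were the pseudocount, filter, scaling, fit, plate, pool and leaving out each culture; those without pool Ci1 and with pool A2 alone were added after seeing the data. The 646 columns of other conditions and the table of freshly isolated cells were not used here. Some genes are not reported here.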

Additional observations from a re-analysis of the deposited data

Results flagged for a closer look

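The limma interaction term was called in 29 of the genes named above (adjusted p under 0.05 and at least 1 on the log2 scale). It tests whether the effect of the 3 cytokines differed under LPS from that without LPS. Over all genes tested it was called in 1.01%. The genes named include the largest changes of this term and of the main comparison, so the count of 29 follows in part from their selection. The term was positive, meaning a higher log2 fold change with the cytokines under LPS than without LPS, for Atp6v0d2 (2.30), Pf4 (3.29), Fcgr3 (1.34), Igf1 (1.76) and Htr2b (4.05). It was negative for Chil3 (−3.47), Fpr2 (−5.03), Marco (−3.82), Itgal (−3.63), Fpr1 (−4.57), Ms4a4c (−4.76), Klra2 (−4.46), Cxcl10 (−3.74), Slamf9 (−4.65), Pilrb2 (−3.12) and Siglece (−4.73). It was also negative for Pilra (−3.56), Pilrb1 (−3.87), Retnla (−5.03), Socs3 (−3.59), Il1b (−2.86), Irg1 (−4.26), Ifit3b (−3.23), Slfn1 (−3.38), Lcn2 (−3.43), Cp (−3.27), Cfp (−1.81), Itgb2 (−1.44) and Slc13a3 (−5.04). Values are differences of log2 fold changes, and the cytokine dose beside LPS is not known. Genes near 0 without LPS, such as Cxcl10 and Klra2 (untreated medians 0.182 and 0.594 CPM), could hardly fall there.

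In 12 of 109 genes, 1 of the 5 cultures with LPS and the cytokines lay far from the other 4 by Dixon's test, which by chance happens in about 1 of 20 groups. Culture 5 was the far one for Ms4a4c (0.515 CPM), Stat3 (5.44 CPM), Il1rn (87.5 CPM), Cxcl9 (31.8 CPM), Irak3 (40.2 CPM) and P2ry12 (11.3 CPM). It was culture 4 for Il10 (2.56 CPM), culture 1 for Nos2 (0.738 CPM) and Vegfa (1.53 CPM), culture 2 for Nfkbia (75.1 CPM), and culture 3 for Clec12a (23.6 CPM) and Clec7a (449 CPM). Culture 5 was also the shallowest of the 5, at 1.94 M mapped reads (M for 1e6), and its part in these values was not tested.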

How the results depend on the processing

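The main comparison called 603 genes and between 441 and 629 when 1 culture was left out, and pool A2 alone gave 342. Of these 603 genes, 569 were also called in the same direction with median-of-ratios scaling, 460 with plate as a term, 328 with pool as a term and 347 without pool Ci1. The calls of LPS against untreated (1176) ranged from 1072 to 1165 with 1 culture left out and were 456 in pool A2 alone. The contrast with IL4 (20) gave 11 with a pseudocount of 0.1, 4 with only the groups compared, 55 with plate as a term, 10 without pool Ci1 and 12 to 17 with 1 culture left out. The contrast with IL10 (205) gave 110 with only the groups compared, 362 with plate, 81 without pool Ci1 and 142 to 184 with 1 culture left out. The contrast with IL13 (140) gave 249 with plate and 115 to 130 with 1 culture left out, and the interaction (119) 79 with a pseudocount of 0.1, 281 with plate and 100 to 115. Their causes were not tested.

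Of 95 called genes named above, 65 kept their direction and call under every alternative that could test them and 81 under every left-out culture. None reversed. A filter at a mean of 20 CPM left 75 of them to test, all called. The pool term lost 16 calls and pool A2 alone 16, among them Retnla, Cxcl9, Vegfa and Abi3 in both, and the exact rank-sum test lost Ccl24, Il4ra, Il10, Ptgs2, Cxcl9, Mmp12 and Alox5ap.

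Signs changed only for uncalled genes. Stat6 was 0.046 without pool Ci1. Naaa was 0.46 with plate and 0.11 with pool as a term. Slpi was −0.0028 with a pseudocount of 0.1, −0.025 with plate, −0.38 with pool as a term, −0.48 in plate A or pool A2 alone and from −0.36 to 0.39 with 1 culture left out. P2ry12 was −0.27 with a pseudocount of 0.1, −0.58 without pool Ci1 and from −0.67 to 0.24 with 1 culture left out. Il13ra1 was −0.12 with plate, −0.63 in plate A or pool A2 alone and from −0.33 to 0.71 with 1 culture left out.

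No paired analysis was possible because the labels give no replicate numbers that link cultures of different groups. Depth limits the low genes most, since in the shallowest LPS culture (1.05 M mapped reads) a read was worth about 1 CPM.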
